A study of Caenorhabditis elegans with 16 samples.

Results

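The genes described here are 10 that *C. elegans* oocytes use while they grow, mature and turn into embryos: *rme-2*, *oma-1*, *oma-2*, *puf-5*, *spn-4*, *pos-1*, *egg-1*, *egg-2*, *egg-3* and *mbk-2*. They were taken by name from a table of read counts for 42048 genes in whole-worm RNA. All 10 were in the table and passed the filter on low counts, as did 11776 genes in all. The 16 libraries fall into 4 groups of 4 biological replicates: *syp-2::AID* worms exposed for 4 h to 4 mM auxin in their plates, untreated *syp-2::AID* worms, N2 worms on the same auxin plates, and untreated N2 worms. N2 is the wild-type strain, and all worms were young adults, pooled for each library. In *syp-2::AID* worms the gene of SYP-2, a central region protein of the synaptonemal complex that holds paired chromosomes together in meiosis, carries an auxin-inducible degron. These worms also make the plant F-box protein TIR1, in the germline from the *sun-1* promoter, so that auxin leads to degradation of the tagged protein. N2 worms have neither the tag nor TIR1, so the strains differ by both, and the sources used here do not say whether the untreated plates held the solvent of the auxin. The study asked whether transcripts change when SYP-2 is lost from meiotic nuclei, and the genes of later oocytes are read here for that question. The N2 libraries set auxin plates against untreated plates in worms without the degron.

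A *C. elegans* oocyte grows in a row of cells behind the pachytene region, takes up yolk made in the intestine and stores maternal RNA whose translation is held back by RNA-binding proteins. A signal from sperm then makes the oldest oocyte mature, be ovulated and be fertilised, and a kinase and its anchors at the cell cortex mark the start of egg activation. Growing oocytes and early embryos share many of these transcripts, because embryos inherit them before their own genome is active.

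Total counts were between 14668136 and 16334961 with auxin in *syp-2::AID*, 15753730 and 18741524 without auxin in *syp-2::AID*, 13964761 and 16537215 with auxin in N2, and 14214414 and 16563325 without auxin in N2. Each of the 10 genes had between 1241 and 28614 counts in every library, so that counting error alone was at most 2.84% of a value (SD). The *syp-2* transcript was between 24.3 and 28.3 CPM (counts scaled to the effective library size) with auxin in *syp-2::AID* and between 22.3 and 27 CPM without. Because the degron removes protein and not RNA, its level says nothing of the labels. Auxin replicates 3 and 4 of *syp-2::AID* stood apart from the other 14 libraries: the rank correlation between a gene's deviation from its mean and its exonic length, over 11457 genes, was -0.55 and -0.63 in them and 0.051 to 0.28 elsewhere. Fold changes below that use these libraries are therefore also given without them. Of the cell type markers, the summed level of 11 genes of earlier germ cells was 1765 to 1982 CPM in auxin-treated *syp-2::AID*, 1732 to 2145 CPM in untreated *syp-2::AID*, 1737 to 1974 CPM in auxin-treated N2 and 1785 to 2245 CPM in untreated N2. Sperm markers were near 0 in all groups, with 2 of 15 past the count filter and a sum of 14.7 to 23.9 CPM. Whole worms can carry embryos, and the summed level of early embryonic zygotic genes (9 of 16 past the filter, *med-1* at 0 in every library) was 20.5 to 40.2 CPM in auxin-treated *syp-2::AID*, 28.9 to 58.7 CPM in untreated *syp-2::AID*, 36.1 to 83.6 CPM in auxin-treated N2 and 19.3 to 52.0 CPM in untreated N2. Of the 9 zygotic genes tested, 2 had an unadjusted p under 0.05 by edgeR for auxin in *syp-2::AID* (median log2 fold change -0.63, and -0.73 without auxin replicates 3 and 4), 7 for auxin in N2 (median 1.10), 7 for the difference in response (median -2.0, and -1.82 without those replicates), 0 for the untreated strains (median 0.58) and 6 for the auxin-treated strains (median -1.13, and -1.20 without those replicates). At that unadjusted threshold the shares of all genes tested were 30.0%, 18.5%, 17.6%, 17.6% and 27.4%, in the same order. DESeq2 called 0, 1, 2, 0 and 4 of the 9 in these comparisons, and 1345, 917, 131, 576 and 806 of all genes. The part that the number of embryos plays in the values below was not tested.

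Together the 10 genes took 0.431% to 0.656% of all counts in auxin-treated *syp-2::AID* libraries, 0.601% to 0.677% in untreated *syp-2::AID*, 0.598% to 0.699% in auxin-treated N2 and 0.568% to 0.646% in untreated N2. Levels of different genes can be set against each other only per length, so CPM was divided by the kilobases of exon in the WBcel235 annotation, which run from 1117 bases in *pos-1* on chromosome V to 4843 bases in *mbk-2* on chromosome IV. In untreated N2 worms *pos-1* had the highest level, at 629 ± 28.3 CPM per kb (SD, n = 4, as for the levels that follow). Below it stood *egg-1* on chromosome III with 538 ± 56.0 CPM per kb, *rme-2* on IV with 524 ± 47.2, *puf-5* on II with 523 ± 68.4 and *oma-2* on V with 464 ± 31.0 CPM per kb. The ranges of neighbours in this run from *egg-1* to *oma-2* overlapped in untreated N2, although within each of the 16 libraries *puf-5* lay above *oma-2*. Next came *spn-4* on V with 313 ± 11.9 CPM per kb, then *egg-2* on III with 196 ± 22.9 and *oma-1* on IV with 189 ± 12, the last 2 overlapping each other. The lowest levels were those of *egg-3* on II, 124 ± 10.5 CPM per kb, and *mbk-2*, 56.4 ± 1.88 CPM per kb. The order was nearly the same in the other groups, and *mbk-2*, with 14 annotated transcripts, was the lowest of the 10 in each. Its length pools the exons of all 14 transcripts, so a single transcript can be shorter and its level per kb higher. Before division by length *mbk-2* was at 273 CPM in untreated N2, above *egg-3* at 222 CPM. In auxin-treated *syp-2::AID* it was below, at 171 against 198 CPM. A *mbk-2* level lay above that of at least 60.3% of genes with a length in every library, and the other 9 genes lay above at least 87.9%.

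**Figure D1:**
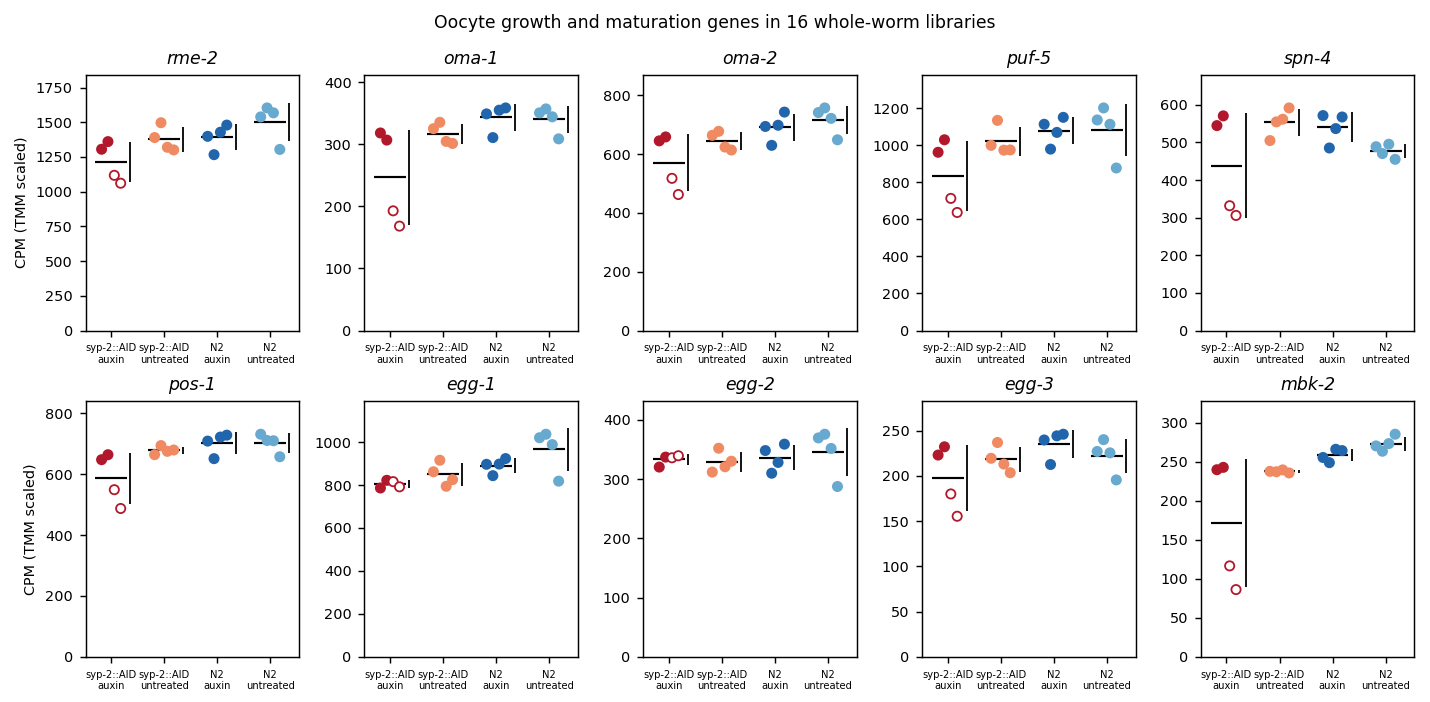
Level of each gene (y axis, CPM with TMM scaling, from 0) in the 16 libraries, by group; points are libraries, lines the group mean, vertical bars 1 SD (n = 4), and open points auxin replicates 3 and 4 of *syp-2::AID*. For 8 of the 10 genes both open points lie below the other 14 libraries, while for *egg-1* and *egg-2* they lie among them.

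None of the 10 genes passed the test between auxin-treated and untreated *syp-2::AID* worms, and for most of them the auxin group was itself split. Auxin replicates 1 and 2 lay close to the untreated libraries, and replicates 3 and 4 lay below all other 14 libraries for 8 of the 10 genes, all but *egg-1* and *egg-2*. By edgeR's quasi-likelihood test, with Benjamini-Hochberg adjustment over 11776 genes and a threshold of 0.05, 0 of 10 were called (7.20% of all genes tested were). At an unadjusted p under 0.05 there were 2, *oma-1* and *pos-1* (30.0% of all genes), and DESeq2 and limma-voom called 0 (1345 and 868 of all genes). The median log2 fold change of the 10 was -0.20, against 0.033 over all genes tested, with 9 values below 0 and 1 above. Without replicates 3 and 4 the median was -0.0090, with values between -0.078 and 0.061 and again 0 calls by edgeR (3.64% of all genes tested). In bulk RNA, fewer oocytes and less RNA per oocyte cannot be told apart.

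Yolk enters the oocyte through *rme-2*. This gene, which encodes the receptor of the LDL receptor family that binds yolk at the oocyte surface, had 1306, 1361, 1118 and 1061 CPM in auxin-treated *syp-2::AID* replicates 1 to 4 and 1389.9, 1497, 1319.9 and 1301 CPM in the untreated ones. In N2 it had 1399, 1267, 1429 and 1479.7 CPM with auxin and 1539, 1603, 1568 and 1304 CPM without. Its levels in the *syp-2::AID* groups overlapped, since auxin replicates 1 and 2 lay within the range of the untreated libraries. The means were 1211 ± 144 CPM with auxin and 1377 ± 88.6 CPM without (SD, n = 4 each; log2 fold change -0.18, SE 0.10, adjusted p = 0.225, edgeR's quasi-likelihood test). Without replicates 3 and 4 the log2 fold change was -0.046.

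Among the RNA-binding proteins, *oma-1* encodes a CCCH zinc finger protein that, with its close relative OMA-2, is needed for oocytes to mature. It had 318, 307, 193 and 168 CPM in auxin-treated *syp-2::AID* and 325, 335, 305 and 301 CPM in untreated *syp-2::AID*. In N2 it had 349, 311, 355 and 358 CPM with auxin and 351, 357, 344 and 309 CPM without. In auxin replicates 3 and 4 of *syp-2::AID* it was thus at 193 and 168 CPM, below the lowest of the other 14 libraries, 301 CPM. Its mean was 246 ± 77.0 CPM with auxin and 317 ± 16.3 CPM without (log2 fold change -0.36, SE 0.16, adjusted p = 0.144, edgeR's quasi-likelihood test), and the log2 fold change without those replicates was -0.018. *oma-2* had 645, 658, 518 and 463 CPM in auxin-treated *syp-2::AID* and 664, 677, 624 and 614 CPM in untreated *syp-2::AID*. Its N2 values were 694, 629.7, 698 and 743 CPM with auxin and 741, 757, 721 and 649 CPM without. The same auxin replicates were the lowest, by less than in *oma-1*, and the groups overlapped (log2 fold change -0.18, SE 0.11, adjusted p = 0.265, edgeR's quasi-likelihood test; 0.016 without replicates 3 and 4).

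*puf-5* encodes a Pumilio family protein that represses translation in growing oocytes. It had 961, 1029, 713 and 637 CPM in auxin-treated *syp-2::AID* and 999, 1133, 973 and 974 CPM in untreated *syp-2::AID*. In N2 the values were 1112, 978, 1068 and 1149.6 CPM with auxin and 1136, 1200.4, 1112 and 877 CPM without. The *syp-2::AID* groups overlapped, auxin replicate 2 being above 3 of the 4 untreated libraries (log2 fold change -0.29, SE 0.14, adjusted p = 0.178, edgeR's quasi-likelihood test; -0.035 without replicates 3 and 4). *spn-4* encodes an RRM protein that acts on maternal RNA in the early embryo. Its level was 545, 571, 332 and 306 CPM in auxin-treated *syp-2::AID* and 505, 555, 562 and 592 CPM in untreated *syp-2::AID*. In N2 it was 571, 485, 537 and 568 CPM with auxin and 489, 470.3, 495 and 455 CPM without. In *syp-2::AID*, auxin replicates 3 and 4 lay far under the other libraries and replicates 1 and 2 within the untreated range, so the SD with auxin was the larger one, 438 ± 139 CPM against 553 ± 36 CPM (log2 fold change -0.34, SE 0.16, adjusted p = 0.169, edgeR's quasi-likelihood test; 0.012 without replicates 3 and 4).

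*pos-1* encodes a CCCH zinc finger protein whose RNA is stored in the oocyte and whose protein acts in posterior cells of the embryo. It had 648, 664, 549 and 487 CPM in auxin-treated *syp-2::AID* and 664, 694, 675 and 679.6 CPM in untreated *syp-2::AID*. Its N2 values were 709, 651, 722 and 728 CPM with auxin and 731, 711, 710.1 and 658 CPM without. Of the 10 genes this was the one whose *syp-2::AID* groups did not overlap (13.0% of all genes tested did not), but the gap between auxin replicate 2 and untreated replicate 1 was under 1 CPM. The exact two-sided permutation test gave p = 0.0286, the smallest that 4 against 4 libraries allow. The edgeR quasi-likelihood test did not call it (log2 fold change -0.21, SE 0.094, adjusted p = 0.153), and without replicates 3 and 4 its log2 fold change was -0.048.

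The fertilisation receptors did not show the split between auxin replicates of *syp-2::AID*. *egg-1* and *egg-2* encode a pair of related transmembrane proteins of the oocyte surface that sperm need to enter the egg. *egg-1* had 786, 822, 816 and 792 CPM in auxin-treated *syp-2::AID* and 862, 916, 794 and 825 CPM in untreated *syp-2::AID*. In N2 it had 896, 844, 898 and 923 CPM with auxin and 1020.3, 1037, 988 and 818 CPM without. Its spread in the auxin-treated *syp-2::AID* group was the smallest of its 4 groups, 804 ± 17.6 CPM against 849 ± 52.1 CPM in untreated *syp-2::AID* (log2 fold change -0.079, SE 0.086, adjusted p = 0.533, edgeR's quasi-likelihood test; -0.078 without replicates 3 and 4). *egg-2* had 320.3, 337, 336 and 339 CPM in auxin-treated *syp-2::AID* and 312, 352, 321 and 330.2 CPM in untreated *syp-2::AID*. In N2 its values were 348, 309.9, 328 and 359 CPM with auxin and 369.5, 376, 352 and 288 CPM without. All 16 libraries lay between 288 and 376 CPM for this gene, and auxin replicates 3 and 4 of *syp-2::AID* were inside the untreated range. Its log2 fold change was 0.019, with a 95% interval of -0.16 to 0.20 (edgeR's quasi-likelihood test, adjusted p = 0.895) and 0.00028 without replicates 3 and 4, and its sign turned under some other settings. The sources do not say how reads that fit both genes were counted, so the split of counts between these relatives is uncertain.

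The egg activation genes included the one with the widest spread. *egg-3* encodes a phosphatase-like protein without catalytic activity that anchors the activation machinery at the oocyte cortex. It had 223, 232, 180.0 and 155 CPM in auxin-treated *syp-2::AID* and 219, 237, 213 and 203 CPM in untreated *syp-2::AID*. In N2 it had 239.6, 213, 244 and 246 CPM with auxin and 227, 240.0, 225 and 196 CPM without. The groups overlapped in both strains (in *syp-2::AID* log2 fold change -0.14, SE 0.11, adjusted p = 0.381, edgeR's quasi-likelihood test; 0.061 without replicates 3 and 4). *mbk-2* encodes the DYRK family kinase that phosphorylates OMA-1 and other maternal proteins as the oocyte becomes an embryo. Its values were 239.9, 243, 117 and 86.3 CPM in auxin-treated *syp-2::AID* and 238, 237, 239.7 and 236 CPM in untreated *syp-2::AID*. In N2 they were 256, 249, 266 and 264 CPM with auxin and 270.5, 264, 273 and 285 CPM without. The 4 untreated *syp-2::AID* libraries thus lay within 4 CPM of each other, and auxin replicates 1 and 2 were just above them while replicates 3 and 4 were far below. The means were 171 ± 81.8 CPM with auxin and 238 ± 1.61 CPM without (log2 fold change -0.47, SE 0.23, adjusted p = 0.176, 95% interval -0.95 to 0.013, edgeR's quasi-likelihood test), and without replicates 3 and 4 the log2 fold change was 0.023.

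**Figure D2:**
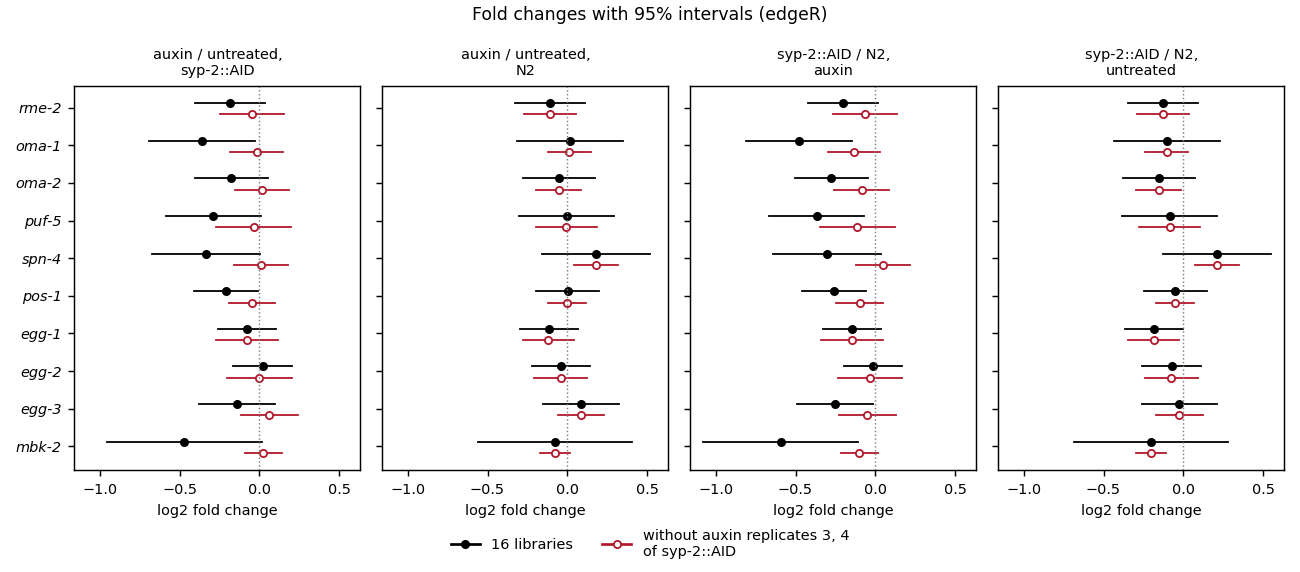
Log2 fold change of each gene with its 95% interval (edgeR) in the 2 auxin comparisons and the 2 comparisons of strains, from 16 libraries (filled) and with auxin replicates 3 and 4 of *syp-2::AID* left out (open). With auxin in *syp-2::AID* the median is -0.20 from 16 libraries and -0.0090 without those replicates, and the open points lie between -0.078 and 0.061.

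The calls depended on which auxin libraries were kept. Without auxin replicate 1 of *syp-2::AID*, so that replicates 3 and 4 made up most of the group, edgeR called 2 of 10 genes, *oma-1* (-0.51 on the log2 scale, adjusted p = 0.0286) and *mbk-2* (-0.68, adjusted p = 0.0445), and 23.1% of all genes tested. Without auxin replicate 2 it called 5 of 10 and 26.5% of all genes: *oma-1* (-0.48), *puf-5* (-0.40), *mbk-2* (-0.69), *spn-4* (-0.49) and *pos-1* (-0.27), with adjusted p between 0.0301 and 0.0456. Leaving out any other single library gave 0 calls among the 10. The 95% interval of the log2 fold change lay within 1.5-fold in either direction for 6 of the 10 genes with all libraries, and for all 10 without replicates 3 and 4, where the intervals ran from -0.27 to 0.24.

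The low values of auxin replicates 3 and 4 went with gene length over the whole table, but genes of equal length differed. Over all genes with a length, the median difference in log2 CPM between replicates 3 and 4 and replicates 1 and 2 was 0.46 for exonic lengths of 500 to 1000 bases, -0.080 for 1500 to 2000 bases, -0.31 for 2000 to 3000 bases and -0.63 for 3000 to 5000 bases. Among the 10 genes the difference was -1.27 in *mbk-2*, the longest with the exons of its transcripts pooled, and -0.29 in *rme-2*, which has 2867 exonic bases. Of these, 4 have nearly the same length and differed: *oma-1* with 1801 bases was at -0.79 and *egg-3* with 1794 bases at -0.44, while *egg-1* with 1795 bases was at -0.00043 and *egg-2* with 1765 bases at 0.039. Over all genes of 1500 to 2000 bases the quartiles were -0.43 and 0.21. Thus *egg-1* and *egg-2* lay inside them, *egg-3* just below and *oma-1* further below. The shorter *spn-4*, with 1523 bases, was at -0.81, also below these quartiles, and *oma-2* with 1546 bases was inside them at -0.41. *puf-5* with 2069 bases was at -0.56, above the lower quartile of -0.66 for 2000 to 3000 bases. The shortest of all, *pos-1*, was at -0.34, while genes of 1000 to 1500 bases had a median of 0.18 and a lower quartile of -0.13. *mbk-2* too lay below the lower quartile of its class, -1.01, and *rme-2* lay near the median of its class. When each library's trend with length was removed, the auxin log2 fold change in *syp-2::AID* became 0.026 for *rme-2* and -0.20 for *mbk-2*, and was -0.34 for *oma-1*, -0.37 for *spn-4* and -0.32 for *pos-1*. In that fit edgeR called 0 of 10, and 981 of the 11776 genes tested.

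**Figure D3:**
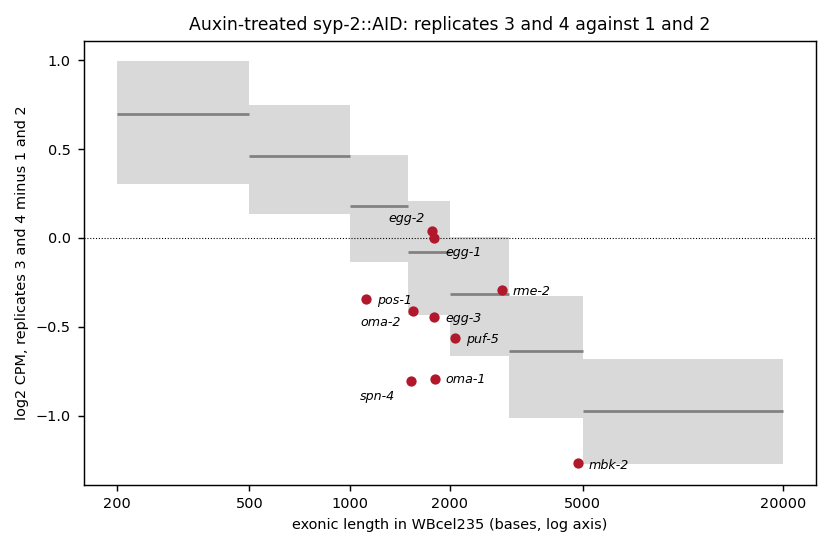
Difference in log2 CPM between auxin replicates 3 and 4 and replicates 1 and 2 of *syp-2::AID* (y axis) against exonic length (x axis, log scale); red points are the 10 genes, grey lines the medians and grey bands the quartiles of all genes in a length class. *oma-1*, *egg-1*, *egg-2* and *egg-3*, with 1765 to 1801 bases, lie between -0.79 and 0.039.

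In N2 worms, which lack the degron, the auxin plates came with small differences in either direction, all within 1.5-fold by their 95% intervals. Of the 10 genes 0 were called by edgeR (5.43% of all genes tested were), 0 had an unadjusted p under 0.05 (18.5% of all genes), 0 were called by DESeq2 or limma-voom (917 and 568 of all genes), and 0 had groups without overlap (17.2% of all genes). The median log2 fold change was -0.023, against 0.013 over all genes, with 6 values below 0 and 4 above. The highest was that of *spn-4*, with 540.2 ± 39.8 CPM with auxin and 477 ± 18.2 CPM without (SD, n = 4 each; log2 fold change 0.18, SE 0.16, adjusted p = 0.599, edgeR's quasi-likelihood test). The lowest was that of *egg-1*, with 890.3 ± 33.4 CPM with auxin and 966 ± 100.5 CPM without (log2 fold change -0.12, SE 0.086, adjusted p = 0.508, edgeR's quasi-likelihood test). Within the N2 groups the genes varied together from library to library. In auxin replicate 2 all 10 genes were at their lowest of the 4 auxin-treated N2 libraries, and this library also had the lowest total, 13964761 counts. In untreated replicate 4, 9 of the 10 were at their lowest of the untreated N2 libraries, and the exception, *mbk-2*, was at its highest. The part of these libraries' preparation in that was not tested.

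The responses to auxin were set against each other by an interaction term. For 0 of the 10 genes did the response differ between the strains by edgeR at the adjusted threshold (0.0170% of all genes tested did), and DESeq2 and limma-voom called 0 (131 and 0 of all genes). At an unadjusted p under 0.05 there was 1, *spn-4* (17.6% of all genes), with a difference of -0.51 on the log2 scale (SE 0.23, adjusted p = 0.260, edgeR's quasi-likelihood test). Its auxin log2 fold change was -0.34 in *syp-2::AID* and 0.18 in N2. With auxin replicates 3 and 4 of *syp-2::AID* left out the difference was -0.17 for *spn-4* (adjusted p = 0.728, edgeR), and the median over the 10 genes was 0.0082, against -0.22 with all libraries.

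The untreated strains were compared next. On plates without auxin, 9 of the 10 genes had lower mean levels in the degron strain and *spn-4* a higher one. None of the 10 passed the test with all libraries in the fit. Of all genes tested, 46.9% had a log2 fold change below 0. With no scaling factors *rme-2*, *oma-1*, *puf-5*, *egg-2*, *egg-3* and *pos-1* turned to values between 0.0026 and 0.10. The direction of these genes thus depended on the scaling. By edgeR 0 of 10 were called (0.875% of all genes tested), and by DESeq2 and limma-voom 0 (576 and 85 of all genes). At an unadjusted p under 0.05 there was 1, *egg-1* (17.6% of all genes), with 849 ± 52.1 CPM in untreated *syp-2::AID* and 966 ± 100.5 CPM in untreated N2 (SD, n = 4 each; log2 fold change -0.19, SE 0.086, adjusted p = 0.276, edgeR's quasi-likelihood test). The median log2 fold change was -0.094, against 0.023 over all genes. For 2 of the 10 genes the untreated strains did not overlap (13.6% of all genes). *mbk-2* was at 238, 237, 239.7 and 236 CPM in untreated *syp-2::AID* and at 270.5, 264, 273 and 285 CPM in untreated N2, so that each of the 4 degron libraries was lower. *spn-4* was at 505, 555, 562 and 592 CPM in untreated *syp-2::AID* and at 489, 470.3, 495 and 455 CPM in untreated N2, so that each of the 4 degron libraries was higher. Each gave p = 0.0286 in the exact two-sided permutation test, the smallest possible.

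These 2 genes were the ones whose call changed with auxin replicates 3 and 4 of *syp-2::AID* left out, although neither library is part of this comparison. All groups share 1 estimate of the spread, and the SE of *mbk-2* was 0.23 with those libraries in the fit and 0.045 without them. Without them edgeR called *mbk-2* lower (log2 fold change -0.20, adjusted p = 0.0117) and *spn-4* higher (0.21, adjusted p = 0.0440) in the degron strain, 2 of 10 genes, with 12.4% of all genes tested called in that fit. With all 16 libraries the same log2 fold changes were -0.20 and 0.21, at adjusted p = 0.674 and 0.507 (edgeR's quasi-likelihood test). A fit of the 8 untreated libraries alone called 0 of 10.

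With auxin in both strains all 10 genes had lower mean levels in *syp-2::AID*, and none was called by edgeR (1.05% of all genes tested were). At an unadjusted p under 0.05 there were 6, *oma-1*, *oma-2*, *puf-5*, *egg-3*, *mbk-2* and *pos-1* (27.4% of all genes). DESeq2 called 1, *pos-1* (adjusted p = 0.0473, with 8.10% of all genes given an adjusted p), and limma-voom called 0 (139 of all genes). The median log2 fold change was -0.27, against 0.043 over all genes, and -0.092 once auxin replicates 3 and 4 of *syp-2::AID* were left out, with 0 calls by edgeR then as well (0.435% of all genes tested). The largest was that of *mbk-2*, 171 ± 81.8 CPM in auxin-treated *syp-2::AID* and 259 ± 8.01 CPM in auxin-treated N2 (log2 fold change -0.59, SE 0.23, adjusted p = 0.128, edgeR's quasi-likelihood test; -0.10 without those replicates). *oma-1* followed, with 246 ± 77.0 CPM in auxin-treated *syp-2::AID* and 343 ± 22 CPM in auxin-treated N2 (log2 fold change -0.48, SE 0.16, adjusted p = 0.0993, edgeR's quasi-likelihood test; -0.14 without those replicates). The groups did not overlap for 2 genes, *egg-1* and *mbk-2*, both lower in *syp-2::AID* (11.6% of all genes; exact two-sided permutation test p = 0.0286 each). For *egg-1* the value did not rest on replicates 3 and 4, since its log2 fold change was -0.15 with them and -0.15 without. Leaving out auxin replicate 1 of *syp-2::AID* gave 4 calls by edgeR, *oma-1*, *oma-2*, *mbk-2* and *pos-1* (17% of all genes), and leaving out replicate 2 gave 7, with *puf-5*, *egg-3* and *spn-4* besides (20.1% of all genes), all lower in *syp-2::AID*. Leaving out any other single library gave 0.

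Related genes were compared within each library, where scaling plays no part. The counts of *egg-2* per count of *egg-1* were 0.415 ± 0.00966 in auxin-treated *syp-2::AID*, 0.388 ± 0.0191 in untreated *syp-2::AID*, 0.378 ± 0.0128 in auxin-treated N2 and 0.358 ± 0.00533 in untreated N2 (SD, n = 4 each). Each of the auxin-treated *syp-2::AID* libraries, between 0.407 and 0.429, was above all 12 others, of which the highest was at 0.404, and this held for replicates 1 and 2 as for replicates 3 and 4. The ratio was higher with auxin in both strains and the groups did not overlap, so that the exact two-sided permutation test gave p = 0.0286 in each strain and 0.0686 after Benjamini-Hochberg adjustment over the 12 comparisons of 3 ratios. The counts of *oma-1* per count of *oma-2* were 0.424 ± 0.0655 in auxin-treated *syp-2::AID*, 0.491 ± 0.00294 in untreated *syp-2::AID*, 0.497 ± 0.0113 in auxin-treated N2 and 0.474 ± 0.00259 in untreated N2. The wide spread of the first group again came from auxin replicates 3 and 4, at 0.372 and 0.364, against 0.493 and 0.466 in replicates 1 and 2. In the other groups the SD was at most 0.0113, and untreated *syp-2::AID* libraries (0.488 to 0.495) lay above untreated N2 libraries (0.471 to 0.477), with p = 0.0286 in the exact permutation test and 0.0686 after adjustment. In N2 the libraries with auxin (0.483 to 0.508) likewise lay above those without, with the same p and adjusted p in the exact test. The third ratio, *mbk-2* per *egg-3*, gave no adjusted p under 0.0980 in any comparison. How often ratios of other gene pairs have groups without overlap was not computed. Among single genes 11.6% to 17.2% had groups without overlap in these comparisons. The ratio of *egg-2* to *egg-1* also carries the uncertain split of reads between them.

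**Figure D4:**
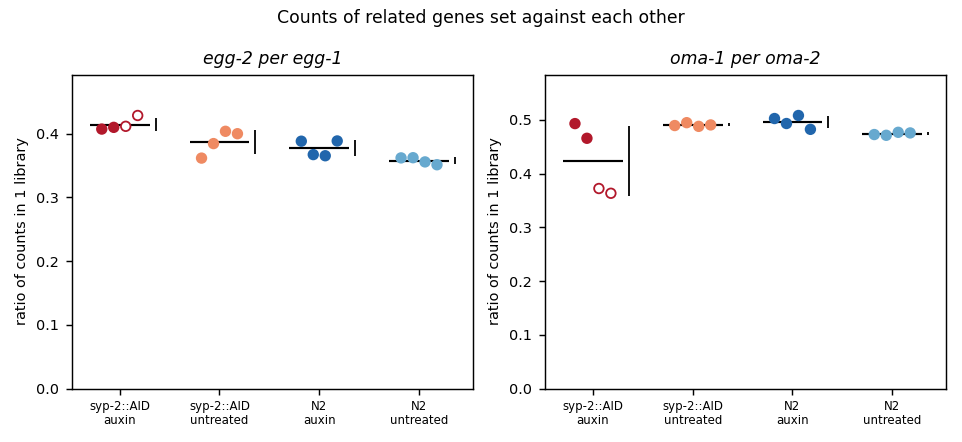
Ratio of counts of *egg-2* to *egg-1* and of *oma-1* to *oma-2* (y axes, no unit, from 0) in each library, by group; points are libraries, lines the mean, vertical bars 1 SD (n = 4), and open points auxin replicates 3 and 4 of *syp-2::AID*. The auxin-treated *syp-2::AID* libraries lie highest for *egg-2* per *egg-1*, and the open points lie lowest for *oma-1* per *oma-2*.

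The genes differed in how closely they followed one another. Pearson's r of log2 CPM between a gene and the mean of the other 9 was 0.99 for *puf-5*, 0.98 for *oma-2*, 0.96 for *pos-1* and *rme-2* and 0.33 for *egg-2* over the 16 libraries. *mbk-2* was at 0.85 and *spn-4* at 0.73. Without the 2 libraries that stood apart, over 14 libraries, *puf-5* was at 0.94 and *egg-2* at 0.86, while *mbk-2* was at 0.31 and *spn-4* at -0.14. The libraries share their groups and their scaling, so these are descriptions with no test. The 5 genes outside the set with the highest Pearson's r to its mean over the 16 libraries were *rpn-2* (0.98), *acly-2* (0.97), *zbp-1* (0.97), *nmy-2* (0.97) and *ppm-1* (0.97). Over the 14 libraries these 5 had an r between 0.85 and 0.95, the highest being that of *acly-2*. *nmy-2* encodes the nonmuscle myosin II of the germline and early embryo. Whether the 5 genes share any role with the set was not tested.

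Other genes of these processes were read from lists. Of 23 further RNA regulators of oocytes and early embryos, edgeR called 0 in all 5 comparisons. DESeq2 called 2 for auxin in *syp-2::AID*, 1 for auxin in N2 and 0 for the difference in response. Between the untreated strains it called 2, and between the auxin-treated strains 4. Of all genes DESeq2 called 1345, 917, 131, 576 and 806, in that order. At an unadjusted p under 0.05 there were 7 for auxin in *syp-2::AID* (30.0% of all genes tested), 1 for auxin in N2 (18.5%), 0 for the difference in response (17.6%), 6 for the untreated strains (17.6%) and 12 for the auxin-treated strains (27.4%). Their median log2 fold change for auxin in *syp-2::AID* was -0.34, and -0.020 without auxin replicates 3 and 4. Of 9 egg activation and eggshell genes edgeR called 0 in all comparisons. In the same order of comparisons DESeq2 called 0, 1, 0, 4 and 3, beside the same calls over all genes. There were 3, 2, 0, 4 and 4 at an unadjusted p under 0.05 in the same order of comparisons, beside the same shares of all genes. Their median for auxin in *syp-2::AID* was -0.088, and 0.012 without those replicates. Of 19 genes of maturation signalling and the cell cycle, 1 was called in 1 comparison: *cyb-3*, which encodes cyclin B3, was at 747 ± 109 CPM in auxin-treated *syp-2::AID* and 1012 ± 30.0 CPM in auxin-treated N2 (SD, n = 4 each; log2 fold change -0.44, SE 0.095, adjusted p = 0.0392, edgeR's quasi-likelihood test). Without replicates 3 and 4 it was at -0.27 with an adjusted p of 0.0932 from edgeR, and so not called. In that order 7, 0, 1, 2 and 6 of the 19 had an unadjusted p under 0.05, and edgeR called 1.05% of all genes between the auxin-treated strains.

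The 14 genes of yolk proteins and of endocytosis in general gave most of the edgeR calls among the lists of oocyte genes. At an unadjusted p under 0.05 there were 10 for auxin in *syp-2::AID* (30.0% of all genes) and 6 for auxin in N2 (18.5%). For the difference in response there was 1 (17.6%), for the untreated strains 1 (17.6%) and for the auxin-treated strains 6 (27.4%). DESeq2 called 7, 3, 0, 0 and 1 in that order (1345, 917, 131, 576 and 806 of all genes). The list's median for auxin in *syp-2::AID* was -0.38, and -0.13 without replicates 3 and 4. With auxin in *syp-2::AID* 3 of the 14 fell by edgeR's test and none rose, beside 7.20% of all genes called: *vit-1* (2494 ± 703 CPM with auxin and 3932 ± 414 CPM without, log2 fold change -0.66, adjusted p = 0.0165), *vit-3* (-0.50, adjusted p = 0.0211) and *vit-4* (-0.43, adjusted p = 0.0391). They encode vitellogenins, the yolk proteins that RME-2 takes up, and are made in the intestine. With auxin replicates 3 and 4 left out none of the 3 was called (log2 fold changes of -0.34, -0.28 and -0.23, adjusted p = 0.0817, 0.151 and 0.338, edgeR). With auxin in N2, where 5.43% of all genes were called, *vit-1* fell (2715 ± 158 CPM with auxin and 4458 ± 258 CPM without, log2 fold change -0.72, adjusted p = 0.0108, edgeR) and *cav-1*, which encodes a caveolin, rose (71.3 ± 20.5 CPM with auxin and 34.5 ± 9.72 CPM without, log2 fold change 1.05, adjusted p = 0.0128, edgeR). *rme-2* itself was at a log2 fold change of -0.11 in that comparison and was not called. In both strains some intestinal markers were called, of 6 tested: with auxin in *syp-2::AID*, *pept-1* fell (log2 fold change -1.19) and *elt-7* rose (0.98), beside 7.20% of all genes, and neither was called without replicates 3 and 4 (-0.63 and 0.57). With auxin in N2 *act-5* fell (-0.47), beside 5.43% of all genes. Their part in the yolk values was not tested.

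The lists also read differently once the 2 auxin replicates that stood apart no longer entered the shared spread. For the untreated strains edgeR then called lower in *syp-2::AID* 6 of the 23 RNA regulators, 4 of the 9 egg activation and eggshell genes, 3 of the 19 genes of maturation signalling and the cell cycle and 3 of the 14 yolk and endocytosis genes, and none of them higher, beside 12.4% of all genes tested. Whether the direction of these list genes depended on the scaling, as it did for some of the named oocyte genes, was not tested. For auxin in N2 edgeR called 6 of the 14 yolk and endocytosis genes lower and 1 higher, 1 of the 9 egg activation and eggshell genes in each direction, 1 of the 23 RNA regulators lower and 0 of the 19 others, beside 12.9% of all genes. Of the other marker lists with all 16 libraries, edgeR called 0 of 11 genes of earlier germ cells, 0 of 2 sperm genes and 0 of 6 somatic gonad genes in any comparison, with at most 1 of each at an unadjusted p under 0.05 and 0 calls by DESeq2. Of the 9 embryonic zygotic genes, whose unadjusted counts are given with their levels, edgeR called 1, *sdz-28*, which rose with auxin in N2 (4.42 ± 1.84 CPM with auxin and 1.56 ± 0.520 CPM without, SD, n = 4 each; log2 fold change 1.5, adjusted p = 0.0356, edgeR's quasi-likelihood test). Of 9 body wall muscle genes 1 was called, *myo-3*, a myosin heavy chain gene, which fell with auxin in *syp-2::AID* (log2 fold change -0.89, adjusted p = 0.0310, edgeR) and was not called without replicates 3 and 4 (-0.56).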

How the data were processed

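RNA from pools of whole young adult worms was sequenced in 16 libraries. Per the labels, reads were processed with bcl2fastq 2.1.7, aligned to ce10 with TopHat2 2.0.11 and counted per gene with featureCounts, and the counts the authors deposited are not normalised. Neither the annotation nor the strandedness of the counting is stated in these sources.

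Counts were tested in R 4.3.3 with edgeR 4.0.16 (quasi-likelihood, robust, TMM factors, default filter at 10 counts) over all 16 libraries as 4 groups, with Benjamini-Hochberg adjustment over 11776 genes and a threshold of 0.05. CPM used the same factors, with a prior count of 2 for log2 values. Single genes and ratios were also compared by exact two-sided permutation tests. The alternatives were RLE or no factors, DESeq2 1.42.0, limma-voom (limma 3.58.1), other filters, the 8 libraries of a comparison alone, a replicate block, each library left out, auxin replicates 3 and 4 of *syp-2::AID* left out, and each library's trend with exonic length removed. Replicates are labelled biological, and no pair agreed within sampling noise.

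The 10 genes and all lists were chosen with earlier results of these data known. The text names these 10, up to 3 genes past the threshold for each list and comparison, with *syp-2* and *med-1* added after their values were seen, and the 5 genes most like the set. Exonic lengths, chromosomes and overlaps came from a WBcel235 annotation. Opposite-strand neighbours share 42 exonic bases with *egg-1* (B0244.9), 21 with *egg-3* (*lurp-1*), 6 with *mbk-2* (F49E11.2) and 8 with *spn-4* (ZC404.15). No coordinates are given, since the alignments used another build. The test scripts were tested on simulated data.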

Additional observations from a re-analysis of the deposited data

Results flagged for a closer look

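Of the 40 sets of 4 values (10 genes in 4 groups), 1 had a library far from the others. *puf-5* in untreated *syp-2::AID* replicate 2 was at 1133 CPM, the highest of its group, and the gap to the next library was 0.839 of the group's range, just above Dixon's 95% limit for 4 values. Chance alone flags about 1 in 20 such groups.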

How the results depend on the processing

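None of the 10 genes was called in the 5 comparisons with all libraries in edgeR. The number called changed for auxin in *syp-2::AID* (0 to 5 with each library left out), for the untreated strains (2 with auxin replicates 3 and 4 of *syp-2::AID* left out) and for the auxin-treated strains (1 with DESeq2, and 0 to 7 with each library left out); the cause was not tested. Over all genes, the calls were 848 for auxin in *syp-2::AID* (393 to 3170 under the alternatives), 640 for auxin in N2 (417 to 1577), 2 for the difference in response (0 to 131), 103 for the untreated strains (26 to 1511) and 124 for the auxin-treated strains (3 to 2405). The replicate numbers did not pair the samples: of 16 correlations between the deviations of same-numbered libraries, from -0.37 to 0.35, 3 were over 0.1. The replicate block left 0 of the 10 genes called in each comparison.

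Of 1290 log2 fold changes under the 26 alternatives, 1203 kept their direction and were not called, 21 kept it and were called, and 66 turned, all of them for values not called under either setting. The causes were not tested. With RLE factors the values that turned were -0.023 (*egg-2*) for auxin in *syp-2::AID*, and -0.0043 (*oma-1*) and -0.017 (*pos-1*) for auxin in N2. With no factors the values that turned were -0.0092 (*egg-2*) for auxin in *syp-2::AID*, and 0.035 (*rme-2*), 0.091 (*oma-2*), 0.14 (*puf-5*), 0.027 (*egg-1*), 0.10 (*egg-2*) and 0.062 (*mbk-2*) for auxin in N2, and -0.13 (*egg-1*) and -0.11 (*egg-2*) for the difference in response, and 0.0026 (*rme-2*), 0.025 (*oma-1*), 0.047 (*puf-5*), 0.058 (*egg-2*), 0.10 (*egg-3*) and 0.079 (*pos-1*) for the untreated strains. With DESeq2 the values that turned were -0.023 (*egg-2*) for auxin in *syp-2::AID*, and -0.0043 (*oma-1*) and -0.017 (*pos-1*) for auxin in N2. With limma-voom the values that turned were 0.0012 (*puf-5*) and -0.00046 (*pos-1*) for auxin in N2. With no filter beyond 1 count the values that turned were -0.027 (*egg-2*) for auxin in *syp-2::AID*, and -0.011 (*egg-1*) for the difference in response. With 10 counts in every library the values that turned were 0.014 (*puf-5*) for auxin in N2. With the 8 libraries of a comparison alone the values that turned were -0.0065 (*egg-2*) for auxin in *syp-2::AID*, and 0.00056 (*puf-5*) for auxin in N2. With the replicate block the values that turned were 0.011 (*puf-5*) for auxin in N2. With auxin replicates 3 and 4 of *syp-2::AID* left out the values that turned were 0.016 (*oma-2*), 0.061 (*egg-3*), 0.023 (*mbk-2*) and 0.012 (*spn-4*) for auxin in *syp-2::AID*, and -0.00062 (*pos-1*) for auxin in N2, and 0.065 (*rme-2*), 0.070 (*oma-2*) and 0.10 (*mbk-2*) for the difference in response, and 0.046 (*spn-4*) for the auxin-treated strains. With the length trend removed the values that turned were 0.026 (*rme-2*) for auxin in *syp-2::AID*, and -0.041 (*oma-1*) and -0.036 (*pos-1*) for auxin in N2, and 0.18 (*rme-2*) for the difference in response, and 0.0095 (*rme-2*) and 0.0090 (*egg-2*) for the auxin-treated strains. With each library left out in turn, the ranges that crossed 0 were -0.0082 to 0.055 (*egg-2*) for auxin in *syp-2::AID*, -0.044 to 0.019 (*egg-2*) for the auxin-treated strains, -0.082 to 0.014 (*egg-3*) for the untreated strains, -0.031 to 0.037 (*oma-1*) for auxin in N2, -0.031 to 0.020 (*pos-1*) for auxin in N2 and -0.094 to 0.048 (*puf-5*) for auxin in N2.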
